A study of Mus musculus with 8 samples.

Results

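Messenger RNA of 9 enzymes of threonine, glycine and one-carbon metabolism was followed across 2 pluripotent states of mouse cells. The 9 genes, Tdh, Gcat, Gldc, Amt, Shmt1, Shmt2, Mthfd1l, Mthfd2 and Mat2a, were picked by symbol from the 22987 genes at 1 locus in the deposited tables, and all 9 were found in every library. RNA-seq of polyadenylated RNA covered 4 libraries of epiblast stem cells (mEpiSC), which model the primed epiblast after implantation, and 4 of embryonic stem cells (mESC), which model the naive inner cell mass. The mEpiSC libraries, grown with FGF2 and passaged as clumps with collagenase, are numbered 1 to 4: mEpiSC 1 is EpiSC5, mEpiSC 2 and 3 are EpiSC7, and mEpiSC 4 is EpiSC9. Of the mESC libraries, grown with LIF and passaged as single cells with trypsin, mESC 1 and 2 are ESF122 and mESC 3 and 4 are ESF175/1. Both states shared a medium with serum replacement and non-essential amino acids on irradiated fibroblast feeders, from which the cells were separated before RNA extraction. No label gives a strain or genotype. The labels also do not say whether a line's libraries were grown apart, so that the spread behind each p-value may be technical.

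Tdh and Gcat act in sequence in the mitochondrion: threonine dehydrogenase oxidizes threonine, and the Gcat enzyme splits the product into glycine and acetyl-CoA. The glycine cleavage system, of which Gldc and Amt encode the P and T proteins, then passes a carbon unit of glycine to tetrahydrofolate, the same carrier that serine hydroxymethyltransferases load from serine. Folate enzymes such as Mthfd2 and Mthfd1l turn that unit into formate for purine and thymidylate synthesis, and Mat2a makes S-adenosylmethionine, the methyl donor. Mouse embryonic stem cells are known for their high threonine dehydrogenase and for needing threonine in the medium.

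The promoters of 4 of the genes that were lower in mEpiSC are shown, 3 of which (Gcat, Gldc and Amt) moved by nearly the same amount. Shmt1 was lower too, and its promoter was searched but is not printed. RefSeq (GRCm38.p6) gave a window of 300 bases, 250 before and 50 after the start, for 8 of the 9 genes, all but Tdh. Capitals mark the letters of CACGTG (the E-box bound by Myc-type factors) or of CCAAT on either strand, where it reads ATTGG. The windows lie at chr15:79030624-79030923 (plus strand) for Gcat, chr19:30175392-30175691 (minus) for Gldc, chr9:108296655-108296954 (plus) for Amt and chr6:83317555-83317854 (minus) for Mthfd2.
Gcat: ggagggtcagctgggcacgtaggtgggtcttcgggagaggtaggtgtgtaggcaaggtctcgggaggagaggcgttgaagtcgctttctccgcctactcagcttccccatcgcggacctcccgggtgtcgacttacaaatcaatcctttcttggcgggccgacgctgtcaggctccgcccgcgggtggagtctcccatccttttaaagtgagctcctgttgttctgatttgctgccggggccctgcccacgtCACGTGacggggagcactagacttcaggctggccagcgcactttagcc
Gldc: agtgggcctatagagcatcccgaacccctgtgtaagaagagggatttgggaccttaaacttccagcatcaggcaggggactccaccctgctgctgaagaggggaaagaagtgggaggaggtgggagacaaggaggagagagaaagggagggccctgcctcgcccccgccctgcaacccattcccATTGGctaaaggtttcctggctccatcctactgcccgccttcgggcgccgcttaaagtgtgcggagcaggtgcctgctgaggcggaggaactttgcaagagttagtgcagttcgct
Amt: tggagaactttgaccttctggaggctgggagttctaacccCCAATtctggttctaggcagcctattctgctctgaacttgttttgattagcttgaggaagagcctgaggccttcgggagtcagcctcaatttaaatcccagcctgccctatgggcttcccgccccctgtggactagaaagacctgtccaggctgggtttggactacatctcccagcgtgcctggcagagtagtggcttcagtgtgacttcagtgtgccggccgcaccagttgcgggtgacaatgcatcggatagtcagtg
Mthfd2: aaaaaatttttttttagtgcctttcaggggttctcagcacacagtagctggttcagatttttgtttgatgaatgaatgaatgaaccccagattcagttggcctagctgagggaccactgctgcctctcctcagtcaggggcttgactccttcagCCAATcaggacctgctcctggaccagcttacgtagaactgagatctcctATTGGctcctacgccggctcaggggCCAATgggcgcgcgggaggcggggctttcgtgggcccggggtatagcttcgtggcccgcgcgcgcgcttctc
The E-box lay at position 3 in Gcat, counted from 1 at the start site, and in no other of the 8 windows; 7.15% of all 32851 promoter windows held it. Letters CCAAT were found in 5 of the 8, the 3 shown and Shmt1 and Mat2a, against 37.4% of all windows. Mthfd2 held them 3 times, at −96, −47 and −22, as 3.37% of windows did at least 3 times. Neither TGATGNAA, the letters of an amino acid response element (3.97% of windows), nor TCAAGGTCA, those of an Esrrb-type site (0.423%), occurred in any of the 8 on either strand. No match overlapped another. A match describes the letters only, and its absence says only that they are not in this window.

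Levels are FPKM as deposited, that is, fragments scaled to a transcript's length and to the library's total. Each library had 10924 to 11506 genes at 1 FPKM or more, and the deposited intervals implied 24700000 to 38600000 fragments. Summed over markers, the 5 naive genes (Zfp42, Esrrb, Klf4, Tfcp2l1 and Tbx3) were at 4.35 to 6.46 FPKM in mEpiSC and 142.5 to 288.7 in mESC, and the 5 primed genes at 104.5 to 300.7 in mEpiSC and 23.8 to 82.1 in mESC. Both sums differ in the direction of the labels. By the state test described below, all 5 naive genes were lower in mEpiSC, and 4 of the 5 primed genes (Fgf5, Otx2, Cdh2 and T) were higher. The remaining primed gene, Pou3f1, averaged 11.9 FPKM in mEpiSC and 12.4 in mESC (log2 −0.09; limma, adjusted p = 0.79). T overlapped between the states, at 20.9 to 46.8 FPKM in mEpiSC and 1.95 to 38.8 in mESC. The naive genes Zfp42 and Tbx3 were under 1 FPKM in every mEpiSC library, so they could enter the test only through mESC. Markers of other cells were read in the same way, where 23.1% of all genes tested were higher in mEpiSC. The 12 fibroblast genes summed to 58.5 to 497.8 FPKM in mEpiSC and 6.35 to 272.9 in mESC, ranges that overlap, with 3 of 11 tested higher and none lower. The 8 primitive endoderm genes summed to 14.2 to 154.1 FPKM in mEpiSC and 3.38 to 5.85 in mESC, with 5 of 5 tested higher. The top of that range was mEpiSC 1 alone, and the other mEpiSC libraries were at 14.2 to 24.3. Of the tested genes, Gata6, Sox17 and Foxq1 were under 1 FPKM in every mESC library. They could thus enter the test only through mEpiSC, where they were high. Of the untested genes, Gata4 and Sox7 had the higher mean in mEpiSC and Cubn in mESC. Of 8 trophoblast genes summing to 2.69 to 12.7 FPKM in mEpiSC and 2.69 to 7.34 in mESC, 0 of 2 tested passed and Tpbpa was listed at 0 throughout. The part of these cells in the results below was not tested, and in bulk RNA fewer cells of a type and less RNA per cell cannot be told apart. A second principal component (16.9% of the variance) set both replicate 4 libraries, mEpiSC 4 and mESC 4, apart from the other 6.

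Each difference between states is the mean log2(FPKM + 1) of mEpiSC less that of mESC, a scale on which changes of low genes look too small. These were tested with limma over the 11556 genes that reached 1 FPKM in 4 or more libraries, and passed at a Benjamini-Hochberg adjusted p under 0.05 over all of them. Of the 9 genes 6 were lower in mEpiSC and none was higher: Tdh, Gcat, Gldc, Amt, Shmt1 and Mthfd2. Of all genes tested, 37.3% passed, 14.2% lower and 23.1% higher in mEpiSC. The libraries of the 2 states did not overlap for the same 6 genes, against 14.9% of all genes that lay lower without overlap (37.1% in either direction). The median difference of the 9 was −0.89, against 0.08 for all genes tested. Calls over all genes were 61.9% higher as deposited, but 51.0% with median ratio scaling and 49.8% with quantile normalization, each of which moved the median of all genes by −0.10. The 9 genes kept their signs under both. Tdh differed most of the 9, and Gcat, Gldc and Amt by nearly the same amount as each other.

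**Figure D1:**
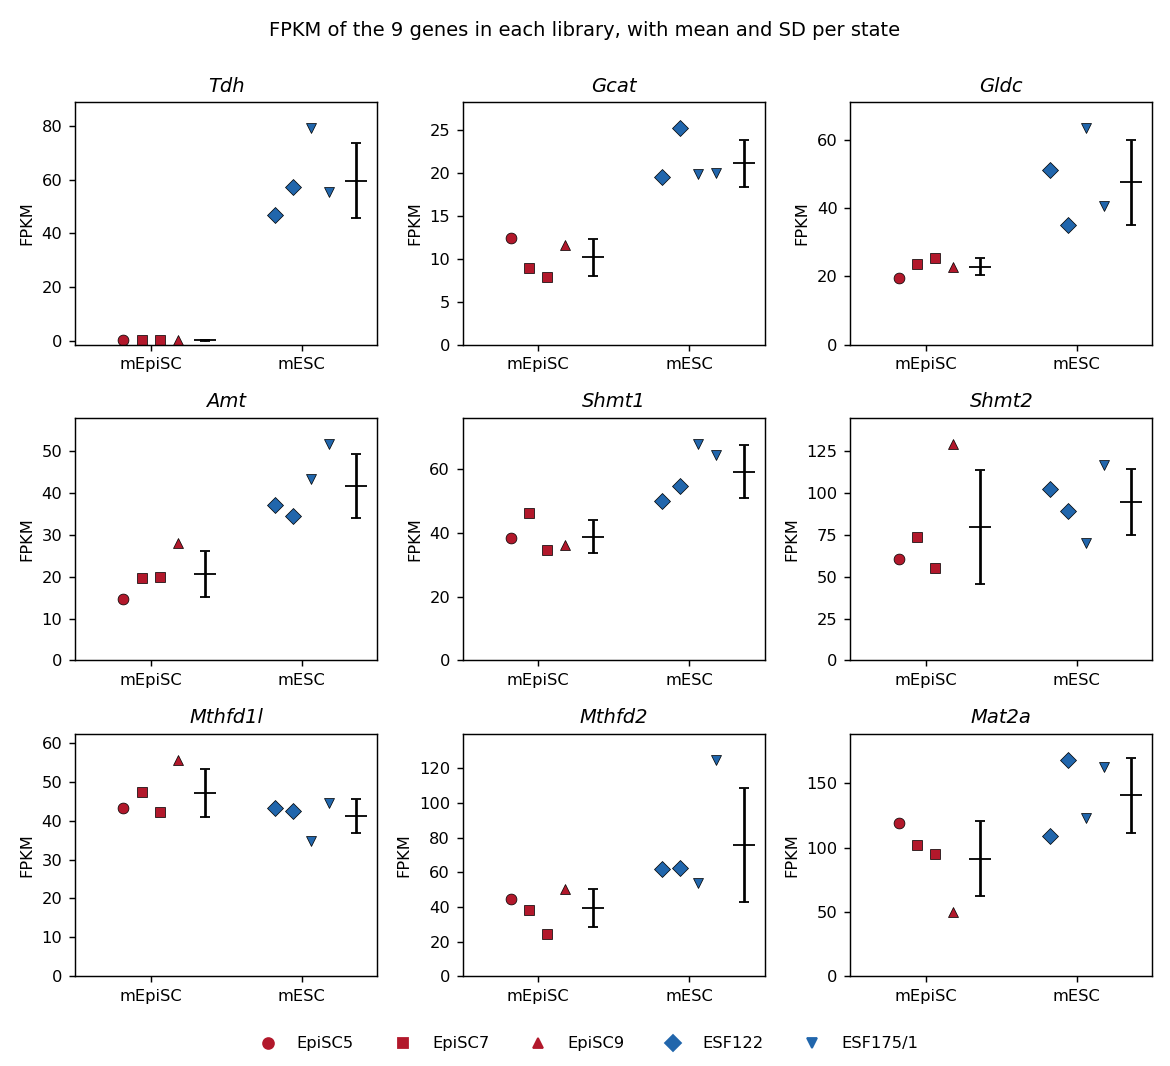
FPKM of each of the 9 genes (vertical axes, each panel with its own range) in the 4 mEpiSC and the 4 mESC libraries, with points marked by cell line and a black bar for the mean ± SD. The mEpiSC points of Tdh lie at 0.0541 to 0.383, on the base of its panel, while those of Shmt2, Mthfd1l and Mat2a overlap with the mESC points.

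Threonine breakdown showed the widest gap. Tdh, at 14:64111183-64127929 of mm9, the build of the tables, had 0.0639, 0.125, 0.0541 and 0.383 FPKM in mEpiSC 1 to 4, against 46.7, 57.2, 79.3 and 55.3 FPKM in mESC 1 to 4. The mEpiSC values rest on 7, 11, 4 and 42 implied fragments, with EpiSC9 the highest, and they put Tdh at percentiles 0.909 to 1.75 of the genes tested, against 89.6 to 94.9 in mESC. Averages were 0.156 ± 0.154 FPKM in mEpiSC and 59.6 ± 13.9 in mESC (SD, n = 4 each, as for all averages of states), 381-fold higher in mESC. The log2 difference was −5.70 (SE 0.18, 95% interval −6.10 to −5.29; limma, adjusted p = 3.7e-07). Tdh reached 1 FPKM only in the 4 mESC libraries, so it could enter the test only through the state where it was high. Of its transcripts' 50-base windows, 15.0% also occur in Gm13929.

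Gcat, which takes up the product of Tdh (15:78861303-78872961), had 12.4, 8.96, 7.84 and 11.6 FPKM in mEpiSC 1 to 4, against 19.5, 25.2, 19.85 and 19.97 in mESC 1 to 4. Every mEpiSC library was below every mESC library, and mESC 2 stood above the other 3 of its state. Averages were 10.2 ± 2.15 FPKM in mEpiSC and 21.1 ± 2.73 in mESC, a log2 difference of −0.996 (SE 0.16, interval −1.36 to −0.63; limma, adjusted p = 0.0020). Gcat thus remained a moderately expressed gene in mEpiSC while Tdh was near 0. Galr3, which overlaps Gcat by 647 bases in the tables and shares 10.8% of its windows, was at most at 0.178 FPKM.

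The genes of the P and T proteins of the glycine cleavage system were lower in mEpiSC. Gldc, the glycine decarboxylase (19:30172936-30249908), had 19.6, 23.6, 25.4 and 22.9 FPKM in mEpiSC 1 to 4, against 51.3, 35.0, 63.4 and 40.7 in mESC 1 to 4. The mEpiSC libraries lay close together and the mESC libraries were spread, without overlap. Averages were 22.9 ± 2.41 FPKM in mEpiSC and 47.6 ± 12.5 in mESC, a log2 difference of −0.99 (SE 0.18, interval −1.41 to −0.58; limma, adjusted p = 0.0034).

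Amt, the aminomethyltransferase that hands the carbon unit to tetrahydrofolate (9:108199252-108203928), had 14.8, 19.8, 19.9 and 28.1 FPKM in mEpiSC 1 to 4, against 37.2, 34.6, 43.5 and 51.7 in mESC 1 to 4. The replicate 4 library was the highest within each state, and the states did not overlap. Averages were 20.6 ± 5.51 FPKM in mEpiSC and 41.7 ± 7.63 in mESC, a log2 difference of −0.999 (SE 0.20, interval −1.45 to −0.55; limma, adjusted p = 0.0048). With 1 mean per line, 3 lines against 2, the call of Amt was lost (adjusted p = 0.083), while those of Tdh, Gcat and Gldc were kept (0.00088, 0.047 and 0.024).

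The other proteins of the same complex did not pass the test. Gcsh, the lipoyl carrier (H) protein, had 55.3, 46.6, 37.9 and 56.6 FPKM in mEpiSC 1 to 4, against 22.9, 29.2, 56.9 and 95.9 in mESC 1 to 4. The mESC range enclosed the mEpiSC range, and the log2 difference was 0.14 (95% interval −0.76 to 1.04; limma, adjusted p = 0.81). Dld, the dihydrolipoamide dehydrogenase that also serves other complexes, had 41.4 to 49.5 FPKM in mEpiSC and 35.5 to 51.2 in mESC (log2 0.09, interval −0.21 to 0.39; adjusted p = 0.63).

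Of the serine hydroxymethyltransferases, which convert serine and glycine into each other, Shmt1 was lower in mEpiSC and Shmt2 did not pass the test, though their ratio did not differ past its own test. The cytosolic Shmt1 (11:60602398-60624767) had 38.3, 46.2, 34.5 and 36.2 FPKM in mEpiSC 1 to 4, against 49.8, 54.8, 67.8 and 64.3 in mESC 1 to 4. The states lay next to each other without overlap, and both ESF175/1 libraries were above both ESF122 libraries. Averages were 38.8 ± 5.18 FPKM in mEpiSC and 59.2 ± 8.30 in mESC, a log2 difference of −0.59 (SE 0.14, interval −0.91 to −0.27; limma, adjusted p = 0.011; 0.071 with 1 mean per line).

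The mitochondrial Shmt2 (10:126954178-126959500) had 60.9, 73.9, 55.2 and 129.3 FPKM in mEpiSC 1 to 4, against 102.6, 89.7, 70.2 and 116.7 in mESC 1 to 4. The mEpiSC 4 library (EpiSC9) held the highest value of all 8, and the other 3 mEpiSC libraries lay around the lower end of mESC. Averages were 79.8 ± 33.9 FPKM in mEpiSC and 94.8 ± 19.7 in mESC, a log2 difference of −0.30 (SE 0.27, interval −0.91 to 0.31; limma, adjusted p = 0.41). Without mEpiSC 4 it was −0.56 and passed the test (adjusted p = 0.043), the only 1 of 20 alternatives under which it did. With replicates 1 to 3 only, which also leaves out mEpiSC 4, it was −0.45 and did not pass (limma, adjusted p = 0.065). In mEpiSC 4 the fibroblast sum was the lowest of its state at 58.5 FPKM, and its part was not tested. Ndufa4l2 overlaps Shmt2 by 32 bases and had 3.06 to 46.7 FPKM in mEpiSC and 8.05 to 18.5 in mESC.

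Of the mitochondrial folate enzymes, Mthfd2 was lower in mEpiSC and Mthfd1l did not pass the test. Mthfd2, the dehydrogenase and cyclohydrolase (6:83255697-83267598), had 44.4, 38.4, 24.4 and 50.1 FPKM in mEpiSC 1 to 4, against 62.0, 62.2, 53.6 and 124.9 in mESC 1 to 4. The highest mEpiSC library was just below the lowest mESC library, and mESC 4 stood far above the rest. Averages were 39.3 ± 11.1 FPKM in mEpiSC and 75.7 ± 33.1 in mESC, a log2 difference of −0.89 (SE 0.30, interval −1.56 to −0.22; limma, adjusted p = 0.043). This call was lost without any 1 of mESC 1, mESC 2, mESC 4, mEpiSC 1, mEpiSC 2 or mEpiSC 3 (adjusted p 0.059 to 0.11), with lines fitted as a random block (0.17) and with 1 mean per line (0.11).

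Mthfd1l, the formyltetrahydrofolate synthetase that releases formate (10:6179459-6373466), had 43.1, 47.2, 42.3 and 55.6 FPKM in mEpiSC 1 to 4, against 43.2, 42.4, 34.7 and 44.6 in mESC 1 to 4. It was the 1 gene of the 9 with a positive difference, and the states overlapped. Averages were 47.1 ± 6.08 FPKM in mEpiSC and 41.2 ± 4.46 in mESC, a log2 difference of 0.19 (SE 0.13, interval −0.11 to 0.48; limma, adjusted p = 0.30).

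Mat2a, which makes S-adenosylmethionine from methionine (6:72382792-72389552), had 119.0, 101.9, 95.3 and 50.3 FPKM in mEpiSC 1 to 4, against 109.0, 168.3, 123.3 and 163.0 in mESC 1 to 4. It had the highest FPKM of the 9 genes in every library except mEpiSC 4, where its own value was lowest and Shmt2 was the highest gene. Averages were 91.6 ± 29.3 FPKM in mEpiSC and 140.9 ± 29.2 in mESC, a log2 difference of −0.66 (SE 0.27, interval −1.27 to −0.05). The unadjusted interval lies below 0, but the difference did not pass over all genes (limma, adjusted p = 0.082), and it passed under none of 20 other settings (0.054 to 0.25). Of its windows 10.9% are shared, and 4930414L22Rik, which overlaps it by 876 bases, had 0.880 to 1.60 FPKM in mEpiSC and 0.711 to 1.29 in mESC.

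**Figure D2:**
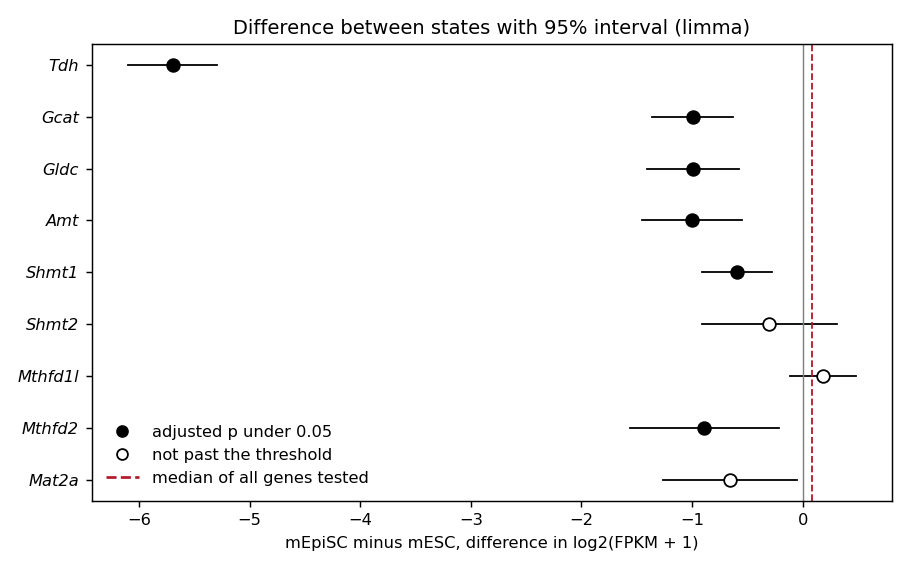
Difference between states of each gene, mEpiSC minus mESC in log2(FPKM + 1), with its 95% interval from limma; filled points passed at an adjusted p under 0.05 and the dashed line is the median of all genes tested (0.08). Tdh lies far to the left at −5.70, and Gcat, Gldc and Amt are aligned near −1.

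Ratios of enzymes that act together were compared within each library as log2((A + 1)/(B + 1)), by exact two-sided permutation tests of 4 against 4 (70 splits, smallest possible p 0.0286) adjusted over the 3 ratios. Tdh over Gcat was 0.00516, 0.0139, 0.00690 and 0.0330 in mEpiSC 1 to 4, against 2.39, 2.27, 3.99 and 2.77 in mESC 1 to 4. So Tdh exceeded Gcat in all mESC libraries and was far below it in all mEpiSC libraries. The log2 ratio was −3.26 ± 0.26 in mEpiSC and 1.43 ± 0.36 in mESC, a difference of −4.70 with the smallest p that the exact test allows (0.0286; adjusted p = 0.086). Paired by replicate number, as a block, the exact sign-flip p was 0.125, the smallest that 4 pairs allow.

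Gldc over Amt was 1.33, 1.20, 1.28 and 0.813 in mEpiSC 1 to 4, against 1.38, 1.01, 1.46 and 0.786 in mESC 1 to 4. It was under 1 only in the replicate 4 library of each state. The log2 ratio was 0.17 ± 0.31 in mEpiSC and 0.17 ± 0.41 in mESC (exact permutation p = 1), a difference whose sign turned with the pseudocount or the libraries used. Shmt2 over Shmt1 was 1.59, 1.60, 1.60 and 3.58 in mEpiSC 1 to 4, against 2.06, 1.64, 1.04 and 1.82 in mESC 1 to 4. The first 3 mEpiSC libraries, of 2 lines, were nearly equal and mEpiSC 4 stood apart. The log2 ratio was 0.95 ± 0.57 in mEpiSC and 0.66 ± 0.43 in mESC (difference 0.29, exact permutation p = 0.57, adjusted p = 0.86).

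**Figure D3:**
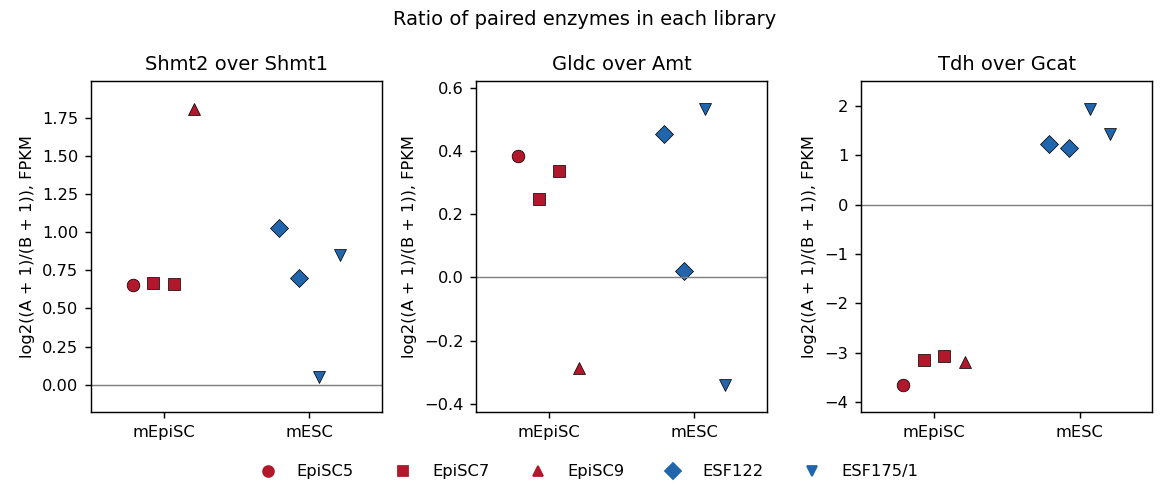
Log2 ratio of the FPKM + 1 of paired enzymes in each mEpiSC and mESC library, with points marked by line. Tdh over Gcat parts the states, Gldc over Amt does not, and Shmt2 over Shmt1 has mEpiSC 4 at 1.81 apart from mEpiSC 1 to 3, which lie at 0.66 to 0.67.

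Lines within a state were compared in a limma fit with a mean for each of the 5 lines. None of the 9 genes passed between ESF175/1 and ESF122, where 88 genes passed (0.762% of those tested). At an unadjusted p under 0.05 there were 1723 of the 11556 genes tested and 1 of the 9. That gene was Amt, named after its values were seen, with means of 47.6 FPKM in ESF175/1 and 35.9 in ESF122 (log2 0.39, SE 0.15; limma, adjusted p = 0.30). Tdh averaged 67.3 FPKM in ESF175/1 and 52.0 in ESF122 (log2 0.35, SE 0.21; adjusted p = 0.49). Mthfd2 averaged 89.2 FPKM in ESF175/1 and 62.1 in ESF122 (log2 0.39, SE 0.39; adjusted p = 0.66), which was −0.21 without mESC 4. The count of 88 was 23, 16, 1497 and 59 without mESC 1 to 4 and 18 without mEpiSC 2 or mEpiSC 3.

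Among the mEpiSC lines, none of the 9 passed the F test over EpiSC5, EpiSC7 and EpiSC9, where 300 genes passed (2.60%). At an unadjusted p under 0.05 there were 2857 of the 11556 genes tested and 3 of the 9 (Amt, Mat2a and Shmt2). EpiSC5 and EpiSC9 have 1 library each, assumed to vary like the lines with 2. Amt was at 28.1 FPKM in EpiSC9, 19.8 in EpiSC7 and 14.8 in EpiSC5 (limma F test, adjusted p = 0.12). Mat2a was at 50.3 FPKM in EpiSC9, 98.6 in EpiSC7 and 119.0 in EpiSC5, with EpiSC9 minus EpiSC7 at −0.96 (SE 0.30; F test, adjusted p = 0.14). Shmt2 went the other way at 129.3 FPKM in EpiSC9, 64.5 in EpiSC7 and 60.9 in EpiSC5, with EpiSC9 minus EpiSC7 at 1.01 (SE 0.33; F test, adjusted p = 0.18). Without mESC 3 or mESC 4, Amt (adjusted p = 0.030 each) and Shmt2 (0.034 each) passed, and the count of 300 was 2215 and 2205; it was 52 to 68 without mESC 1, mESC 2, mEpiSC 2 or mEpiSC 3.

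From low to high, Tdh averaged 0.0639 FPKM in EpiSC5, 0.0895 in EpiSC7, 0.383 in EpiSC9, 52.0 in ESF122 and 67.3 in ESF175/1, and lines of 1 state did not differ past the line tests. EpiSC9 held the highest value of the mEpiSC libraries for 5 of the 9 genes, Tdh, Amt, Shmt2, Mthfd1l and Mthfd2, against 42.8% of all genes tested. The mEpiSC 3 library (EpiSC7) held the lowest for 6 of the 9, against 20.5% of all genes. In mESC, replicate 4 was highest for 4 of the 9, against 39.4% of all genes.

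**Figure D4:**
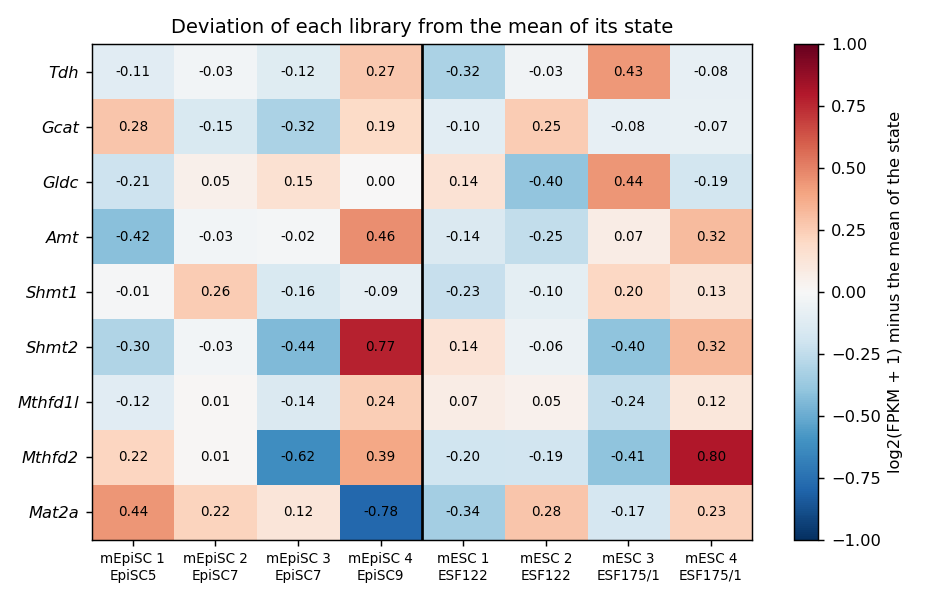
Deviation of each library from the mean of its state in log2(FPKM + 1), for the 9 genes (rows) and the mEpiSC (left) and mESC (right) libraries with their lines. Within mEpiSC 4, Shmt2 is 0.77 above and Mat2a 0.78 below the mean of the state, and Mthfd2 is 0.80 above it in mESC 4.

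Genes around these enzymes were read from 8 lists of 76 genes, of which 66 were tested; 6 were higher (9.09%) and 20 lower (30.3%) in mEpiSC, against 23.1% and 14.2% of all genes tested, with a median of −0.20. In either direction 26 of the 66 passed, where 37.3% of all genes tested did. With lines fitted as a random block, which allows for libraries of 1 line being alike, 6 were higher (9.09%, against 15.5% of all genes) and 8 lower (12.1%, against 9.05%). With 1 mean per line 4 were higher (6.06%, against 7.49% of all genes) and 6 lower (9.09%, against 4.82%). With the replicate block 9 were higher (13.6%, against 27.3% of all genes) and 26 lower (39.4%, against 17.8%). Calls over all genes also moved when 1 library was left out. Lower calls ranged from 1209 (without mEpiSC 3) to 1969 (without mEpiSC 4), against 1640 with all libraries. Higher calls ranged from 1904 (without mESC 3) to 2820 (without mEpiSC 4), against 2665. Of the 22 genes named from these lists, the random block took the calls of 9 (Tars, Tars2, Mthfd1, Srm, Mtrr, Adsl, Atic, Slc7a5 and Slc25a38; limma, adjusted p 0.059 to 0.14). With 1 mean per line Slc7a5 passed (0.029), the other 8 did not, and neither did Ppat, Adssl1, Slc1a5 and Sfxn3 (0.059 to 0.22 for these 12). Threonine and serine use had 1 of 4 tested genes higher and 2 lower (median −0.06; 0 lower with the random block or with 1 mean per line). Sdsl, a serine dehydratase-like gene, had 3.06, 2.61, 2.89 and 3.27 FPKM in mEpiSC 1 to 4, against 0.134, 0.316, 0.0646 and 0.162 in mESC 1 to 4 (log2 1.76, SE 0.13; limma, adjusted p = 4.1e-05). Its groups were far apart at low levels, and it reached 1 FPKM only in the 4 mEpiSC libraries, so it could enter the test only through the state where it was high. Tars, the cytosolic threonyl-tRNA synthetase, fell to 58.2 ± 10.4 FPKM in mEpiSC, against 80.4 ± 3.50 in mESC (log2 −0.48; adjusted p = 0.028). Tars2, its mitochondrial counterpart, fell to 18.2 ± 3.23 FPKM in mEpiSC, against 25.7 ± 4.05 in mESC (log2 −0.47; adjusted p = 0.039). The call of Tars was lost without any 1 of mESC 1 to 4 or mEpiSC 3 (adjusted p 0.053 to 0.070), and that of Tars2 without any 1 of mESC 1, 3 or 4 or mEpiSC 1 to 3 (0.063 to 0.11). None of Phgdh, Psat1 and Psph, the serine synthesis enzymes, passed (median −0.22), but 2 of the 3 were lower without mEpiSC 4. All 3 had their highest mEpiSC value in mEpiSC 4, as had 42.8% of all genes tested.

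Folate enzymes and transporters had 1 of 15 tested genes higher and 5 lower in mEpiSC (median −0.16). Over all genes tested, 23.1% were higher and 14.2% lower. Of the 15, 2 were higher with the replicate block, 3 lower with the random block and 2 lower with 1 mean per line. There were 3 higher without mESC 4, 2 higher without mEpiSC 3, and 3 lower without mESC 1 or mEpiSC 3. Mthfd2l, a mitochondrial relative of Mthfd2, had 7.03, 6.99, 6.99 and 4.08 FPKM in mEpiSC 1 to 4, against 0.248, 0.647, 0.519 and 1.02 in mESC 1 to 4 (log2 2.17, SE 0.21; limma, adjusted p = 0.00018). Mthfd2 was called in the other direction, and its lowest FPKM, a level per length, was above the highest of Mthfd2l. Folr1, a folate receptor, fell to 1.60, 0.718, 0.901 and 2.66 FPKM in mEpiSC 1 to 4, against 24.2, 23.6, 10.9 and 20.7 in mESC 1 to 4 (log2 −3.08, SE 0.31; adjusted p = 0.00020). Fpgs, which retains folates by adding glutamates, was at 15.4 ± 1.26 FPKM in mEpiSC and 31.3 ± 3.18 in mESC (log2 −0.98; adjusted p = 0.00049).

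Mthfd1, the trifunctional cytosolic enzyme that interconverts folates, had 40.6, 40.6, 34.3 and 85.7 FPKM in mEpiSC 1 to 4, against 84.1, 77.5, 87.4 and 113.3 in mESC 1 to 4. The mEpiSC 4 library reached the mESC range and the other 3 lay well below it. The log2 difference was −0.92 (SE 0.27; limma, adjusted p = 0.026), a call lost without any 1 library except mESC 2 or mEpiSC 4 (0.051 to 0.073).

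Methionine, transsulfuration and polyamine genes had 2 of 12 tested higher and 2 lower (median −0.28), a share near the 37.3% of all genes that passed. With the random block or with 1 mean per line 2 were higher and 0 lower. The lower genes were 5 without mEpiSC 4, 1 without mESC 4 or mEpiSC 1, and 0 without mESC 1, mESC 3, mEpiSC 2 or mEpiSC 3. Ahcyl1, a relative of adenosylhomocysteinase, was at 57.2 ± 10.5 FPKM in mEpiSC and 31.4 ± 4.49 in mESC (log2 0.84; limma, adjusted p = 0.0042). The 2 polyamine synthases moved in opposite directions: Sms, which makes spermine, was at 25.2 ± 3.92 FPKM in mEpiSC and 13.3 ± 1.89 in mESC (log2 0.87; adjusted p = 0.0023), though 28.1% of its windows also occur elsewhere. Srm, which makes spermidine, was at 64.6 ± 16.4 FPKM in mEpiSC and 98.0 ± 16.2 in mESC (log2 −0.62; adjusted p = 0.040). Mtrr, the methionine synthase reductase, was at 8.21 ± 1.36 FPKM in mEpiSC and 12.1 ± 1.92 in mESC (log2 −0.51; adjusted p = 0.030). The calls of Srm and Mtrr were each lost without any 1 of mESC 1, mESC 3, mEpiSC 2 or mEpiSC 3, that of Srm also without mESC 4 and that of Mtrr also without mEpiSC 1 (adjusted p 0.059 to 0.091 in all).

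Purine synthesis, which takes up carbon units from formyltetrahydrofolate, had 5 of 10 tested genes lower and 1 higher in mEpiSC (median −0.25). Over all genes tested, 14.2% were lower and 23.1% higher. Of the 10, 2 were higher with the replicate block. With the random block 1 was lower and 1 higher, and with 1 mean per line none passed. The lower genes were 3 without mESC 1, mESC 2 or mESC 4, 2 without mESC 3, mEpiSC 1 or mEpiSC 2, and 1 without mEpiSC 3. Ppat, which catalyses the committed step, was at 38.9 ± 1.66 FPKM in mEpiSC and 56.5 ± 5.85 in mESC (log2 −0.52; limma, adjusted p = 0.0062). Adsl, the adenylosuccinate lyase, was at 44.4 ± 7.82 FPKM in mEpiSC and 66.8 ± 9.95 in mESC (log2 −0.58; adjusted p = 0.017). Atic, which uses formyltetrahydrofolate in the last steps, was at 72.0 ± 13.7 FPKM in mEpiSC and 105.1 ± 16.2 in mESC (log2 −0.55; adjusted p = 0.029). The calls of Adsl without mEpiSC 3 (0.052), and of Atic without any 1 library except mESC 1 or mEpiSC 4 (0.052 to 0.081), were lost. The gene that was higher was Adssl1, an adenylosuccinate synthase best known from muscle, with 3.47, 11.2, 17.9 and 16.9 FPKM in mEpiSC 1 to 4, against 0.762, 1.19, 0.740 and 1.34 in mESC 1 to 4 (log2 2.55, SE 0.42; adjusted p = 0.0020). EpiSC5 was the lowest of the mEpiSC lines for it.

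Transport genes for serine, threonine and glycine had 3 of 10 lower and 1 higher in mEpiSC (median −0.21). Over all genes tested, 14.2% were lower and 23.1% higher, 37.3% in either direction. Of the 10, 2 were higher with the replicate block or without mEpiSC 4, and 3 without mESC 4. With the random block 1 was lower and 1 higher, and with 1 mean per line 1 was lower and 0 higher. Slc1a5, a carrier of neutral amino acids including threonine and serine, had 12.4, 13.4, 10.9 and 45.0 FPKM in mEpiSC 1 to 4, against 65.5, 61.7, 39.2 and 48.8 in mESC 1 to 4 (log2 −1.58, SE 0.40; limma, adjusted p = 0.015). Only mEpiSC 4 lay in the mESC range, and without it the difference was −2.03. Slc7a5, the light chain of a large neutral amino acid exchanger, was at 61.3 ± 14.1 FPKM in mEpiSC and 115.8 ± 22.3 in mESC (log2 −0.92; adjusted p = 0.0081). Slc25a38, a mitochondrial glycine carrier, was at 7.03 ± 1.40 FPKM in mEpiSC and 11.3 ± 0.889 in mESC (log2 −0.63; adjusted p = 0.012). Sfxn3, of the sideroflexin family of mitochondrial serine carriers, was at 3.23 ± 0.863 FPKM in mEpiSC and 1.38 ± 0.557 in mESC (log2 0.84; adjusted p = 0.018).

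Amino acid response genes, many of them targets of the factor Atf4, had 3 of 10 lower and none higher in mEpiSC (median −0.54). Over all genes tested, 14.2% were lower and 23.1% higher, 37.3% in either direction. Of the 10, 6 were lower with the replicate block, 5 lower without mEpiSC 4, and 1 higher without mESC 2 or mEpiSC 3. Nupr1 was at 5.79 ± 3.22 FPKM in mEpiSC and 26.3 ± 6.77 in mESC (log2 −2.13; limma, adjusted p = 0.0028). Trib3, a pseudokinase, was at 4.41 ± 2.55 FPKM in mEpiSC and 19.8 ± 9.30 in mESC (log2 −1.99; adjusted p = 0.0051). Sesn2, a leucine sensor, was at 14.2 ± 4.23 FPKM in mEpiSC and 38.5 ± 5.42 in mESC (log2 −1.41; adjusted p = 0.00090). For 8 of the 10 the highest mEpiSC value was that of mEpiSC 4, against 42.8% of all genes tested. Atf4 itself averaged 106.8 ± 23.1 FPKM in mEpiSC and 152.8 ± 35.3 in mESC (log2 −0.51; adjusted p = 0.088).

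**Figure D5:**
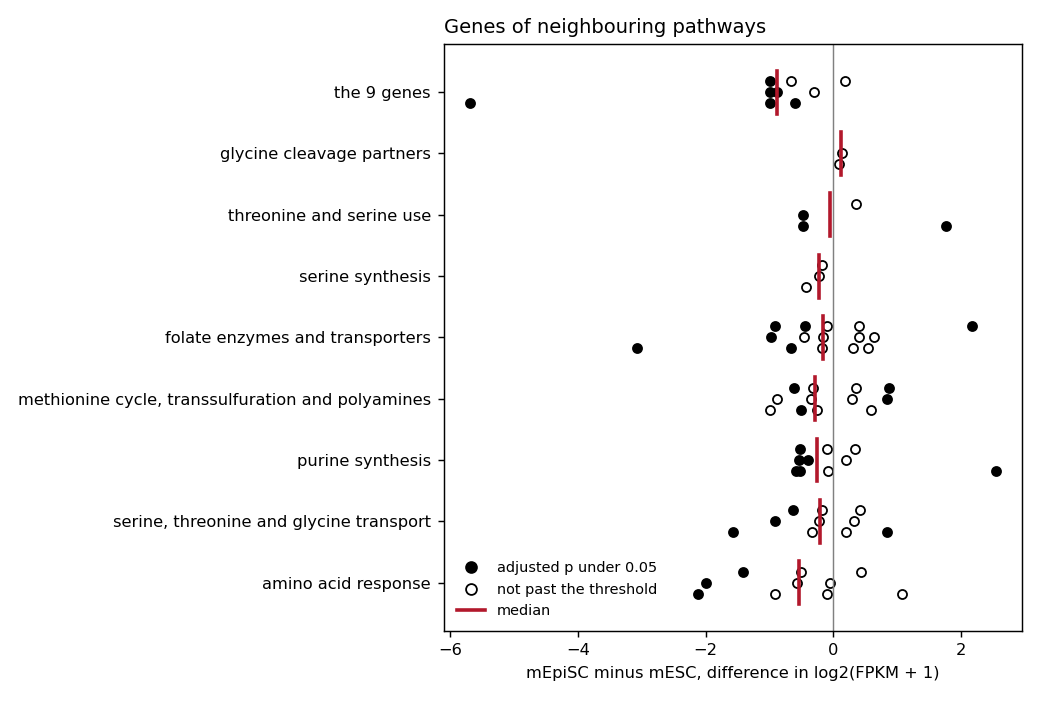
Difference between states of every tested gene of the 9 enzymes and of the 8 pathway lists (rows), mEpiSC minus mESC in log2(FPKM + 1), with filled points past an adjusted p of 0.05 and a red mark at each median. The medians of the lists lie between −0.54 (amino acid response) and 0.12 (glycine cleavage partners), against −0.89 for the 9 enzymes.

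The genes whose pattern over the 8 libraries was most like that of Tdh were Fmr1nb, Dppa4, Triml2, 2410003L11Rik and Gm13242, with a root mean square difference of 0.31, 0.36, 0.38, 0.43 and 0.44 in log2(FPKM + 1) after each gene's own mean was subtracted. All 5 were under 1 FPKM in every mEpiSC library and between 27.0 and 65.2 FPKM in mESC, which follows from choosing them by likeness to Tdh. Like Tdh, they could enter the test only through mESC. Dppa4, a chromatin-associated factor of early embryos, averaged 0.158 ± 0.104 FPKM in mEpiSC and 41.1 ± 6.60 in mESC, though 35.1% of its windows also occur in other genes. The measure is led by the step between the states and says nothing of shared function. The other 5 genes lower in mEpiSC had an absolute log2 difference under 1, Gcat, Gldc and Amt only just, and no likest genes were sought for them.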

How the data were processed

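Per the submitters' processing notes, reads were processed with TopHat2 2.0.6 and Cufflinks 2.0.2 on mm9; no source used here names the annotation, the options or the handling of strand, so overlapping and antisense genes cannot be told apart. The authors deposited FPKM per gene with interval bounds, 1 table per library, per the file headers. There were 0 unused columns of per-sample values. Of 23699 entries, 712 of 248 symbols at several loci were left out. Fragments implied by the deposited intervals were whole (within 0.05) for 80.2% to 81.1% of low genes, too few for a count test. Members had 477.8 to 21819.4 implied fragments and deposited bounds within 1.35% to 9.15% of the value, Tdh in mEpiSC aside; these cover counting error only.

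Libraries were grouped by the labels and tested with limma 3.58.1 (trend, robust, statmod 1.5.0, R 4.3.3), with exact permutation tests (scipy 1.17.1) for the ratios. The limma fits of states and of lines were tried on simulated data with independent noise in each library. The ratio tests, the flags, the pattern ranking and the sequence searches were not. The 9 genes, the lists and the tests were chosen with earlier results of these data known. Named genes were the 9, up to 4 called genes per list with the largest change, and 5 likest genes for Tdh; Gcsh, Dld, Atf4 and the serine synthesis genes were added after their values were seen. Shared 50-base windows came from GENCODE vM21 (GRCm38), which gave no coordinates. Same-numbered libraries deviated together (r of 0.22, 0.15, 0.18 and 0.51 in number order, each over 0.1). They were taken as pairs only in the replicate block, on this evidence alone since no label pairs them, and the main state test was unpaired. The highest r with another number was 0.12, 0.21, 0.21 and −0.22, which for replicates 2 and 3 was above that with the same number. Alternatives were other pseudocounts, filters and scalings, genes of status OK only, no trend, the replicate block, 1 mean per line, the line as a random block (correlation 0.47), replicates 1 to 3, and each library left out.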

Additional observations from a re-analysis of the deposited data

Results flagged for a closer look

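In 8 of 78 groups of 4 libraries examined, 1 library stood far from the other 3; chance flags about 1 in 20 groups. Of these, 5 concerned mEpiSC 4 and 2 mESC 4. Among the 9 genes, Gcat was at 25.2 FPKM in mESC 2, a gap of 0.921 of the range of its group, and Mthfd2 at 124.9 FPKM in mESC 4 (0.879). The log2 ratio of Shmt2 over Shmt1 was 1.81 in mEpiSC 4 (0.991). Of the pathway genes, mEpiSC 4 was the highest mEpiSC library for Mthfd1 at 85.7 FPKM (0.877) and for Slc1a5 at 45.0 FPKM (0.928), and the lowest for Mthfd2l at 4.08 FPKM (0.988). Atic was at 129.1 FPKM in mESC 4 (0.832). Fmr1nb, alike in pattern to Tdh, was at 0.0588 FPKM in mEpiSC 4 and listed at 0 in the other mEpiSC libraries, a gap of 1.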

How the results depend on the processing

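Tdh, Gcat and Gldc were called lower in mEpiSC under all 20 alternatives to the state test, and Amt and Shmt1 under 19. With 1 mean per line, 3 of the 9 genes were lower, Amt was at −0.99 and Shmt1 at −0.61 without a call, Mthfd2 at −0.79, and 865 genes were higher and 557 lower, against 2665 and 1640. With the line as a random block 1046 genes were lower and Mthfd2 was at −0.83 without a call; without the filter Mthfd2 kept −0.89 but not its call, and with a mean of at least 5 FPKM 1597 genes were higher. The replicate block, with 3150 genes higher and 2055 lower, changed no call of the 9 genes (6 lower); for Tdh over Gcat the paired difference was −4.70 (exact sign-flip p = 0.125, the smallest possible). Leaving out 1 library gave 5 to 7 lower members, Mthfd2 −1.02 to −0.62, Shmt2 −0.56 to −0.16, and Tdh over Gcat −4.79 to −4.53 (exact permutation p = 0.057, the smallest possible). Gldc over Amt had a difference of −0.013 with a pseudocount of 5 and −0.16 to 0.16 without 1 library. Between ESF175/1 and ESF122 the 88 calls were 55 with a mean of at least 5 FPKM and 16 to 1497 without 1 library. Signs of uncalled genes turned there: Mat2a was at −0.077 after quantile normalization, and without 1 library Gcat spanned −0.33 to 0.027, Gldc −0.059 to 0.57, Shmt2 −0.44 to 0.28, Mthfd1l −0.30 to 0.057, Mthfd2 −0.21 to 1.00 and Mat2a −0.25 to 0.38. Among mEpiSC lines the 300 calls were 185 and 566 with pseudocounts of 0.1 and 5, 783 without a filter, 159 with a mean of at least 5 FPKM, 186 after median ratio scaling and 52 to 2215 without 1 library. The cause of these changes was not tested. Of the 9 genes, Tdh in mEpiSC rested on the fewest implied fragments, 4 to 42; fragments behind low values of other named genes, such as Sdsl in mESC, were not examined.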
